A study of Mus musculus with 16 samples.

Results

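The genes of the type 2 cytokines and of eosinophils were followed as a list of 10 of the 22298 genes counted in abdominal tumors of mice. The list was chosen by name and holds the cytokines Il4, Il5 and Il13, the transcription factor Gata3, the eotaxins Ccl11 and Ccl24, their receptor Ccr3, and the eosinophil genes Siglecf, Epx and Prg2. All 10 were found in the count tables.

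The tumors came from 6-week-old 615-line mice, wild type, in which the syngeneic gastric cancer cell line MFC was injected into the abdominal cavity at 500000 cells per animal. The vehicle group received PBS and the IL-33 treatment group received IL-33 at 20 μg/kg into the same cavity every other day, and 8 tumors of each group were sequenced from polyadenylated RNA. For this model 4 or 5 mice entered each group, fewer than the 8 tumors sequenced, so some tumors may share a mouse, and the p-values measure the spread between tumors only. The groups differ in the injected protein alone as far as the labels say, and the sex of the single mice is not given in the sources used here. In bulk tumor RNA, fewer cells of a type and less RNA per cell cannot be told apart.

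IL-33 is an alarmin that binds the receptor ST2, encoded by Il1rl1, on innate lymphoid cells of type 2, T helper 2 cells, mast cells and other cells. These lymphocytes, which depend on GATA3, release IL-4, IL-5 and IL-13. IL-5 sustains eosinophils, IL-4 and IL-13 induce eotaxins through STAT6, and eotaxins attract eosinophils through CCR3, while the granule proteins encoded by Epx and Prg2 are made mainly while eosinophils mature.

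Il4, Il13 and Il5 lie in 1 cluster on mouse chromosome 11 (GRCm38), within 122125 bases: Il4 at chr11:53602982-53618669 on the minus strand, Il13 at chr11:53631324-53634702 on the minus strand and Il5 at chr11:53720794-53725106 on the plus strand. Rad50, the DNA repair gene between Il13 and Il5, was looked at after its values had been seen, and had a mean of 40.7 CPM (counts per 1000000 counts of the tumor) over the 16 tumors, between 11.5 and 55.5. RefSeq promoters of 300 bases (250 before and 50 after a start site, GRCm38.p6) were matched for 7 of the 10 genes, in 8 entries. Those of the 3 cytokines and of the eosinophil receptors Ccr3 and Siglecf are shown, and each holds a GATA motif. The Gata3 promoter and the other Il4 entry also hold one and are not shown. The promoters shown are printed 5′ to 3′ on the strand of the gene. Capitals mark matches to the GATA motif, searched on both strands as GATA after an A or a T and before an A or a G.

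Il4: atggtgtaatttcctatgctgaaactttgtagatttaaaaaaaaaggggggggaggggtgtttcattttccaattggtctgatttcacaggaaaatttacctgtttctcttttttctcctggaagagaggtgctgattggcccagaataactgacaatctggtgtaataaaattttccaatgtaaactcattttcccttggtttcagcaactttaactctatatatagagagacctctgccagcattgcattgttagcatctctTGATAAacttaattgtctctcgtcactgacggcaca
Il13: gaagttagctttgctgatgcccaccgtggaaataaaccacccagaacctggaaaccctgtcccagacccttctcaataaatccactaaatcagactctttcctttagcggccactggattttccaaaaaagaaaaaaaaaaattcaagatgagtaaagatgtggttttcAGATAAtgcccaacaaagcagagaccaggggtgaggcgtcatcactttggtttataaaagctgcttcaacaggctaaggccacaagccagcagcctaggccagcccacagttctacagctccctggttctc
Il5: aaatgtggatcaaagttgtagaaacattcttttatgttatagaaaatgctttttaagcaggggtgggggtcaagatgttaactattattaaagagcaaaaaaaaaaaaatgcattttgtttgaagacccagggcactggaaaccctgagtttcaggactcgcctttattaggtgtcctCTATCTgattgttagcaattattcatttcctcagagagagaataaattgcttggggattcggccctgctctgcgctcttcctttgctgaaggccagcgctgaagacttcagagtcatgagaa
Ccr3: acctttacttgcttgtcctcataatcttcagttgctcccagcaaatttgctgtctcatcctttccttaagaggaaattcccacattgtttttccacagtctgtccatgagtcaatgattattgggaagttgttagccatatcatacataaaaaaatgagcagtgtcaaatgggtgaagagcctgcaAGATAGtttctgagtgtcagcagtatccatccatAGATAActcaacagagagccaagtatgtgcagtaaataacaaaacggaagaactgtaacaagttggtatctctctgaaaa
Siglecf: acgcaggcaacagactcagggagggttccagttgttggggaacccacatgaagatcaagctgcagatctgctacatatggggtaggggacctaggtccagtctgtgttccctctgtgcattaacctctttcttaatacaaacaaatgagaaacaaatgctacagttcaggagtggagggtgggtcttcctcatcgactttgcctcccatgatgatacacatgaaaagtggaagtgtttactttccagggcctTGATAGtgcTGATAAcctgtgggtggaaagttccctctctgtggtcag

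The windows are chr11:53618616-53618915 for Il4 (the entry at the start of the gene, of 2), chr11:53634653-53634952 for Il13, chr11:53720544-53720843 for Il5, chr9:124021721-124022020 for Ccr3 and chr7:43351091-43351390 for Siglecf. Counted from the start site as position 1, and by the base of the match nearest the 5′ end, the matches stand at -81 in Il13, at -72 in Il5, where the motif is on the other strand, and at 15 in Il4. Ccr3 has them at -64 and -30 and Siglecf at 3 and 12. A match was present in 6 of the 7 genes with a promoter and in 7 of the 8 entries, Epx being the gene without, against 29.8% of all 32851 RefSeq promoters. The STAT6 motif, TTC and GAA with any 4 bases between them and the same on both strands, was found in Il4 at -167 and in Epx at -5, against 6.95% of all promoters, and it overlapped no GATA match. A match is a description of these letters and not a bound site.

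The 3 cytokines were close to the limit of detection in both groups. Il4, the cytokine that drives T helper 2 differentiation, had 7 counts over the 16 tumors, 4 in the vehicle group and 3 in the IL-33 treatment group. Il5, the growth factor of eosinophils, had 4 counts, 2 in each group. Il13, which acts on macrophages and epithelium, had 2 counts, both in vehicle replicate 7 and none in the IL-33 treatment group.

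Together the cytokines made up 13 of 295641355 counts, 8 from vehicle tumors and 5 from IL-33 tumors. No tumor held more than 2 counts of any of them. Il4 was counted in vehicle replicates 2, 4 and 7 and in IL-33 replicates 3, 4 and 7, with the highest level in vehicle replicate 7 at 0.114 CPM. Il5 was counted in vehicle replicates 1 and 7 and in IL-33 replicate 5, which had 0.110 CPM. A tumor with 0 counts of a gene allows a level of up to 0.124 to 0.212 CPM (3 counts), depending on its depth. Summed over the tumors of a group, the upper 95% counting limit (exact Poisson) was 0.0716 CPM or less for each cytokine in the vehicle tumors and 0.0575 CPM or less in the IL-33 tumors, and differences below these levels could not be seen. Fitted without a filter on low counts, the 3 cytokines had unadjusted p = 0.576 (Il4), 0.974 (Il5) and 0.0838 (Il13) by edgeR. These limits, and the counting intervals given below, cover counting error only.

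Gata3, the transcription factor of T helper 2 and innate lymphoid cells that is also active in several epithelia, varied least between tumors among the genes with enough counts to test. It lies at chr2:9857078-9890034 on the minus strand, and the 2 annotated genes that overlap it had 0 counts. Its level had a lowest value of 2.62, a median of 3.29 and a highest value of 4.78 CPM among the vehicle tumors. Among the IL-33 tumors these were 1.88, 3.97 and 5.21 CPM. The groups overlapped, with the highest level in IL-33 replicate 5 and the lowest in IL-33 replicate 7.

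Gata3 averaged 3.50 ± 0.695 CPM over the vehicle tumors and 3.91 ± 1.05 CPM over the IL-33 tumors (SD, n = 8 each). The log2 fold change was 0.10 ± 0.25 (SE, adjusted p = 0.938, edgeR's quasi-likelihood test with Benjamini-Hochberg adjustment over 16817 genes). Exact permutation, two-sided and on log2(CPM + 0.5), gave a difference of 0.12 (p = 0.498). Without IL-33 replicate 7 the mean of the other 7 IL-33 tumors was 4.20 ± 0.704 CPM and the log2 fold change was 0.22 (unadjusted p = 0.210, edgeR).

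IL-33 replicate 7 stood apart from the other 15 tumors. Genes of the uterus and oviduct, 11 in all, summed to 1696 CPM there and to between 11.1 and 23.0 CPM elsewhere, and 10 genes of the ovary to 973 CPM against at most 8.22 CPM. Its level of Il1rl1 was 37.1 CPM, against 395 to 1318 CPM elsewhere. The fold changes of the listed genes are therefore also given without that tumor, and its part in the low Gata3 value was not tested. Epithelial markers disagreed in the vehicle tumors, and MFC is labelled as a gastric cancer line. Epcam lay between 0.0707 and 0.642 CPM there and the keratin gene Krt18 between 0.0617 and 1.83 CPM. The keratin genes Krt8 and Krt19 lay between 241 and 975 CPM and between 44.5 and 569 CPM. The identity of the line was not tested.

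Ccl11 (eotaxin-1), made by fibroblasts and other stromal cells, was the highest of the 10 genes per length of transcript. It lies at chr11:82057823-82062955 on the plus strand. Its lowest, median and highest levels were 2.53, 4.59 and 36.7 CPM among the vehicle tumors. Among the IL-33 tumors they were 1.95, 4.38 and 22.9 CPM. The groups overlapped, although IL-33 replicates 5 and 6 lay below every vehicle tumor, at 2.30 and 1.95 CPM. Replicate 7 was the highest in each group.

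Ccl11 averaged 8.82 ± 11.5 CPM over the vehicle tumors and 7.23 ± 7.10 CPM over the IL-33 tumors (SD, n = 8 each), with a log2 fold change of -0.44 ± 0.59 (SE, adjusted p = 0.850, edgeR). The log2 fold change was -0.85 without IL-33 replicate 7 (unadjusted p = 0.147, edgeR) and -0.09 without both replicates 7. It changed sign, to 0.34, when vehicle replicate 7 alone was left out (unadjusted p = 0.487, edgeR). The collagen gene Col1a1 stood at 1609 CPM in vehicle replicate 7 and at 3429 CPM in IL-33 replicate 7, while vehicle replicate 3, with 2214 CPM of it, had 9.48 CPM of Ccl11, the second highest of its group. The part of stromal content in the level of Ccl11 was not tested.

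Ccl24 (eotaxin-2), a macrophage product in many tissues, lies at chr5:135569937-135573049 on the minus strand and spread over a wide range in both groups. Its lowest, median and highest levels were 0.198, 0.722 and 3.68 CPM among the vehicle tumors. Among the IL-33 tumors they were 0.0909, 2.19 and 3.36 CPM. IL-33 replicates 3, 4, 7 and 8 lay between 2.46 and 3.36 CPM, a range in which the vehicle group had only replicate 2 above it and none inside. This depended on the scaling. With the TMM scaling used in the edgeR test, these IL-33 tumors lay between 2.40 and 3.02 CPM. Vehicle replicates 2 and 4 were then both above them, at 3.46 and 3.32 CPM.

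Ccl24 averaged 1.29 ± 1.21 CPM over the vehicle tumors and 1.90 ± 1.31 CPM over the IL-33 tumors (SD, n = 8 each), a difference smaller than either SD. The log2 fold change was 0.35 ± 0.68 (SE, adjusted p = 0.912, edgeR), and 0.25 without IL-33 replicate 7 (unadjusted p = 0.715, edgeR). The exact permutation test gave p = 0.403.

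Ccr3, the receptor of both eotaxins on eosinophils, was low in all tumors and did not pass the test. It lies at chr9:124021972-124031689 on the plus strand and had 117 counts in the vehicle group and 64 in the IL-33 treatment group. Its lowest, median and highest levels were 0.185, 0.474 and 2.80 CPM among the vehicle tumors and 0.0541, 0.439 and 0.701 CPM among the IL-33 tumors. Vehicle replicate 7 held 49 of the counts and vehicle replicate 2 held 22, and the other vehicle tumors lay within 0.185 to 0.741 CPM.

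Ccr3 averaged 0.823 ± 0.882 CPM over the vehicle tumors and 0.418 ± 0.191 CPM over the IL-33 tumors (SD, n = 8 each). The log2 fold change was -1.003 ± 0.58 (SE, adjusted p = 0.557, edgeR), -0.93 without IL-33 replicate 7 (unadjusted p = 0.113, edgeR) and -0.43 when vehicle replicate 7 was left out (unadjusted p = 0.434, edgeR). The exact permutation test over all tumors gave p = 0.281.

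Siglecf, an inhibitory lectin on eosinophils that is also found on alveolar macrophages, had 30 counts in 5 vehicle tumors and 18 counts in 6 IL-33 tumors. It lies at chr7:43351341-43359531 on the plus strand. Its lowest, median and highest levels were 0, 0.0926 and 1.03 CPM among the vehicle tumors. Among the IL-33 tumors they were 0, 0.144 and 0.234 CPM. Of the vehicle counts, 18 came from replicate 7.

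Siglecf averaged 0.215 ± 0.351 CPM over the vehicle tumors and 0.123 ± 0.0951 CPM over the IL-33 tumors (SD, n = 8 each). The log2 fold change was -0.88 ± 1.02 (SE, adjusted p = 0.816, edgeR), -0.99 without IL-33 replicate 7, and 0.13 when vehicle replicate 7 was left out (unadjusted p = 0.317 and 0.901, edgeR), so its direction rested on that 1 vehicle tumor.

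Vehicle replicate 7 was the highest of the 16 tumors for Il4, Il13, Ccr3, Siglecf and Ccl11. Several protease genes of mast cells and basophils were also highest there among the 8 vehicle tumors, with 28.6 CPM of the tryptase gene Tpsb2, 25.6 CPM of Mcpt4, 15.7 CPM of Cpa3 and 1.03 CPM of the basophil protease gene Mcpt8. Hdc, the histidine decarboxylase gene, stood at 8.63 CPM in that tumor, below the vehicle mean of 13.4 CPM. Over 11 mast cell and basophil genes, Hdc included, the sum was 144 CPM there, with a median of 26.9 CPM over the vehicle tumors, and 362 CPM in IL-33 replicate 7, where Ccr3 and Siglecf stood at 0.342 and 0.228 CPM. Hdc alone was 141 CPM in IL-33 replicate 7. The 4 protease genes were lower in IL-33 replicate 7 than in vehicle replicate 7, with 13.3 CPM of Tpsb2, 7.92 CPM of Mcpt4, 8.43 CPM of Cpa3 and 0.0570 CPM of Mcpt8. In vehicle replicate 7 the 9 T cell genes summed to 89.2 CPM and the 9 macrophage genes to 2122 CPM, the highest sums of the 16 tumors. Their part in the levels of Ccr3, Siglecf and Ccl11 was not tested.

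**Figure D1:**
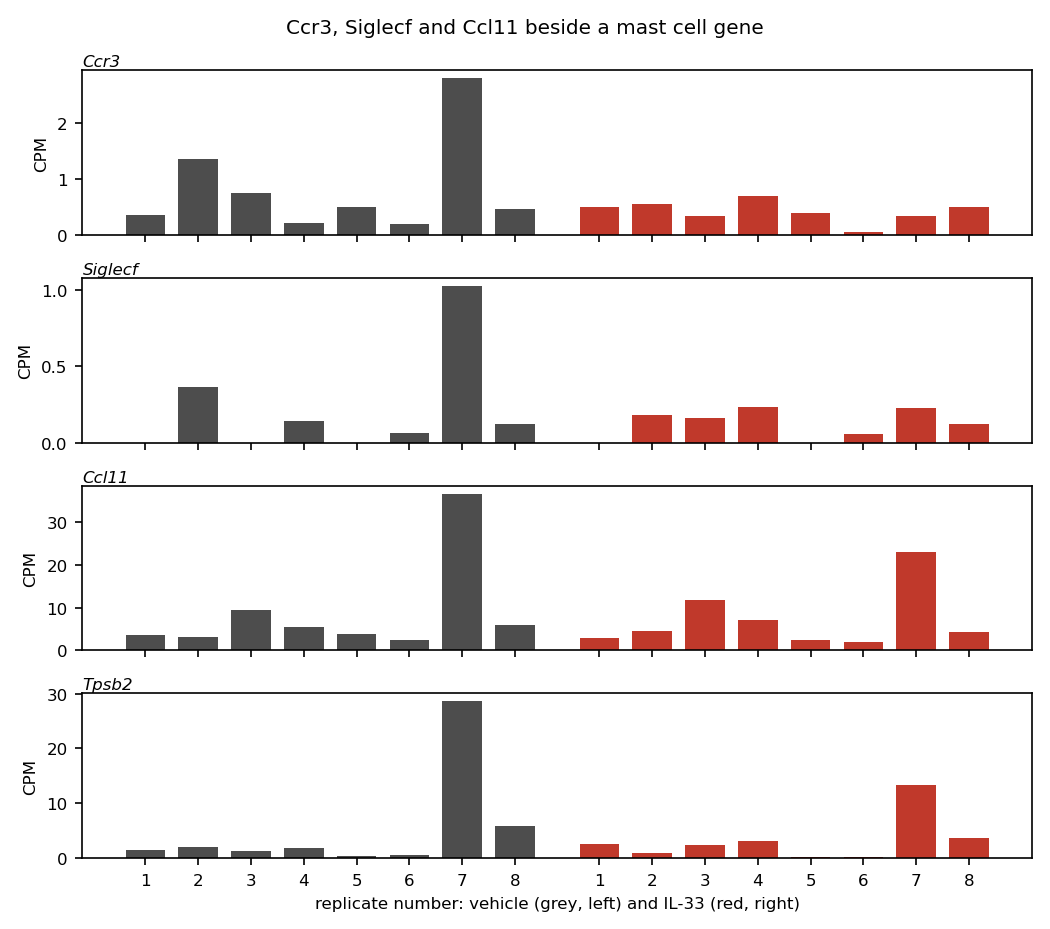
Levels of Ccr3, Siglecf, Ccl11 and the mast cell gene Tpsb2 in each tumor, in CPM, 1 bar per tumor by replicate number, vehicle in grey and IL-33 in red. Vehicle replicate 7 is the tallest bar in all 4 panels, with 2.80, 1.03, 36.7 and 28.6 CPM.

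Prg2 was the only gene of the 10 with an unadjusted p under 0.05, which 11.2% of all genes tested reached. It encodes major basic protein of the eosinophil granule and lies at chr2:84980461-84983632 on the plus strand. In the vehicle group 5 of 8 tumors had a count and none had more than 3 counts, and the lowest, median and highest levels were 0, 0.0555 and 0.184 CPM. Among the IL-33 tumors the counts were 0, 0, 5, 23, 12, 0, 28 and 22 in replicates 1 to 8. IL-33 tumors thus fell into 3 without a count and 5 that lay above every vehicle tumor, at 0.273, 1.34, 0.658, 1.60 and 0.906 CPM in replicates 3, 4, 5, 7 and 8.

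Prg2 averaged 0.0686 ± 0.0743 CPM over the vehicle tumors and 0.597 ± 0.636 CPM over the IL-33 tumors (SD, n = 8 each). Over the summed counts, 10 against 90, the ratio was 8.44, with a 95% counting interval of 4.38 to 18.2. The log2 fold change was 2.87 ± 1.11 (SE, unadjusted p = 0.0188, adjusted p = 0.418, edgeR), and the exact permutation test gave a difference of 0.74 on the log2(CPM + 0.5) scale (p = 0.0421).

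Without IL-33 replicate 7, which held the most counts, the ratio of Prg2 was 6.57 (3.35 to 14.4) and the log2 fold change 2.55 (unadjusted p = 0.0204, edgeR), while the exact permutation p rose to 0.0842. With any 1 of the 16 tumors left out the edgeR log2 fold change stayed between 2.55 and 3.22 with an unadjusted p between 0.00938 and 0.0365. With limma voom and sample quality weights it was 1.09 (unadjusted p = 0.246).

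Over all 16817 genes, 0% reached an adjusted p under 0.05 by edgeR or by DESeq2, while 11.2% had an unadjusted p under 0.05 by edgeR, 9.99% as higher and 1.17% as lower with IL-33. Of the 10 listed genes, 6 passed the filter of 10 counts over all tumors, 0 of these 6 had an adjusted p under 0.05, and 1 of 6, Prg2, had an unadjusted p under 0.05. By DESeq2, where 4.11% of genes did, it was again Prg2 alone, with a log2 fold change of 3.01 (unadjusted p = 0.0124). Without IL-33 replicate 7 the share over all genes was 4.12% (1.83% higher, 2.29% lower), with vehicle replicate 7 left out it was 11.4%, and without both it was 5.43%, and Prg2 was the 1 listed gene each time. The median log2 fold change of the 6 genes was -0.17, with 3 above 0 and 3 below, beside 0.06 over all genes tested.

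**Figure D2:**
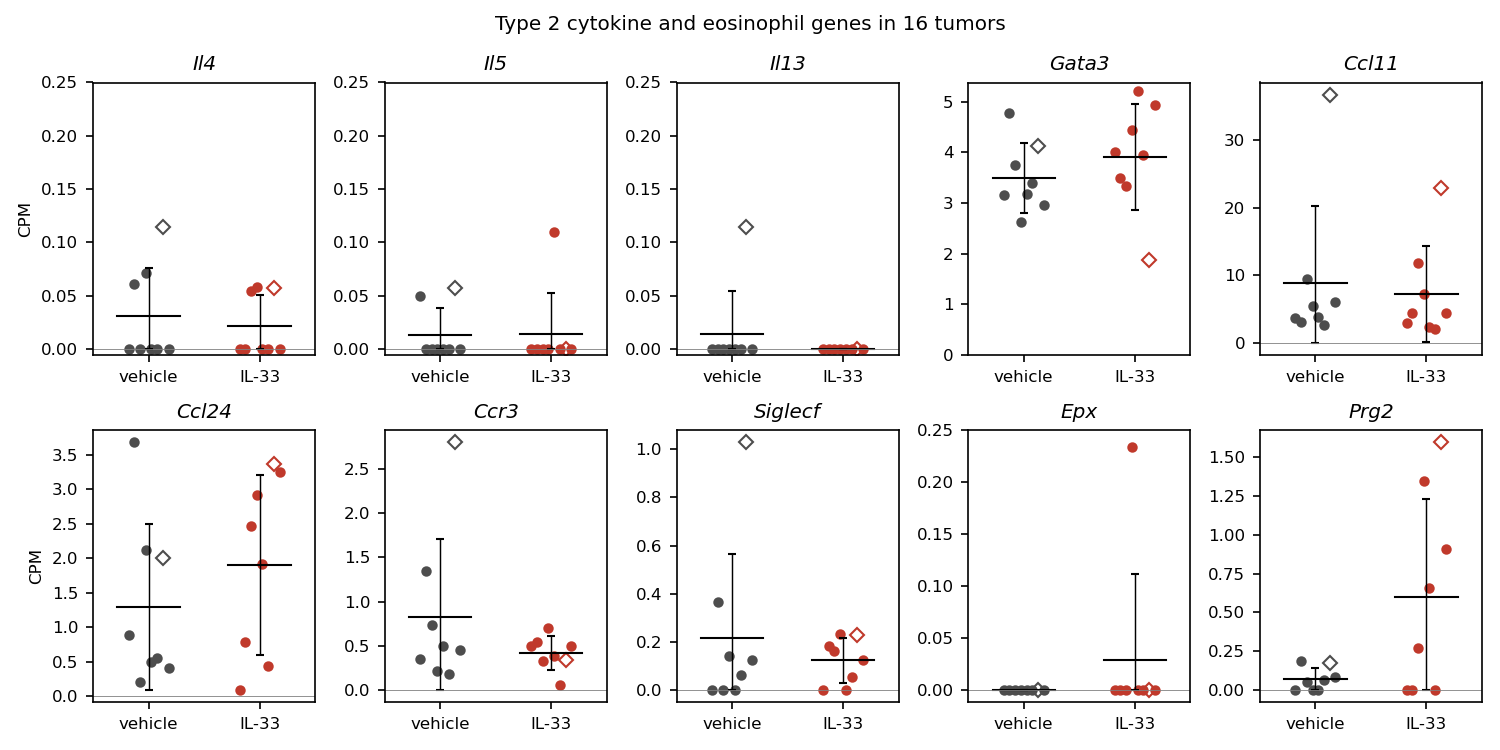
Levels of the 10 genes in CPM (linear axis, scaled per gene) in 8 vehicle and 8 IL-33 tumors, with a point per tumor, replicate 7 of each group as an open diamond, the mean as a line and the SD as a bar that is not drawn below 0. In Il4, Il5, Il13 and Epx most points lie at 0, and in Prg2 5 of the IL-33 tumors lie above all vehicle tumors.

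Epx, the eosinophil peroxidase gene, lies at chr11:87864000-87875536 on the minus strand and had 0 counts in all 8 vehicle tumors and in 7 of 8 IL-33 tumors. The 4 counts came from IL-33 replicate 4, which had 0.234 CPM of it. That tumor was the second highest for Prg2. No fold is given, since the counts rest on 1 tumor.

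Mpo and Mzb1, chosen after their values had been seen, were higher in the 5 IL-33 tumors with Prg2 counts than in all other tumors. Mpo, the peroxidase of neutrophil precursors, was at 7.83, 6.42 and 6.38 CPM in IL-33 replicates 4, 5 and 7, at 0.874 and 0.741 CPM in replicates 3 and 8, and at most 0.181 CPM in IL-33 replicates 1, 2 and 6, and no vehicle tumor passed 0.354 CPM. Its log2 fold change was 3.98 (unadjusted p = 0.00623, edgeR), and 3.81 without IL-33 replicate 7 (unadjusted p = 0.00610, edgeR). Of 4 neutrophil precursor genes 2, Mpo and Elane, were higher at an unadjusted p under 0.05, beside 9.99% of all genes. The summed level of the 4 lay between 0.642 and 5.87 CPM among vehicle tumors and between 0.182 and 18.2 CPM among IL-33 tumors. That sum did not follow Prg2 in every tumor: it was 5.87 and 5.18 CPM in vehicle replicates 4 and 6, which had at most 1 count of Prg2, and 3.66 and 3.95 CPM in IL-33 replicates 3 and 8. In vehicle replicates 4 and 6 Mpo stood at 0.354 and 0 CPM and Elane at 0 and 0.0617 CPM. Most of the sum in those vehicle tumors thus came from the other genes of the list.

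Mzb1, a chaperone gene of plasma cells, was at 13.4, 63.2, 21.0, 14.4 and 56.4 CPM in IL-33 replicates 3, 4, 5, 7 and 8, the 5 tumors with Prg2 counts, and at 2.18 CPM or less in the other 3. Vehicle tumors reached 8.58 CPM of Mzb1, in replicate 2, which was also their highest for Prg2. Of 10 plasma cell genes 4 were higher at an unadjusted p under 0.05 (Mzb1, Derl3, Jchain and Eaf2), beside 9.99% of all genes. That list was made after the values had been seen, so its count is a description and not a test. The summed level lay between 291 and 560 CPM among vehicle tumors and between 462 and 781 CPM among IL-33 tumors. Here too the sum did not follow Prg2 throughout, with 475 and 490 CPM in IL-33 replicates 3 and 5 and 503 and 573 CPM in IL-33 replicates 1 and 2, which had no count of Prg2. Much of this sum was Sdc1, the most abundant gene of the list, with means of 234 and 218 CPM in the vehicle and IL-33 groups. Jchain stood at 54.2, 245, 73.5, 242 and 212 CPM in IL-33 replicates 3, 4, 5, 7 and 8. It was at 7.68, 2.29 and 0.973 CPM in IL-33 replicates 1, 2 and 6, but at 80.8 CPM in vehicle replicate 2. The part of these cells in the level of Prg2 was not tested.

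**Figure D3:**
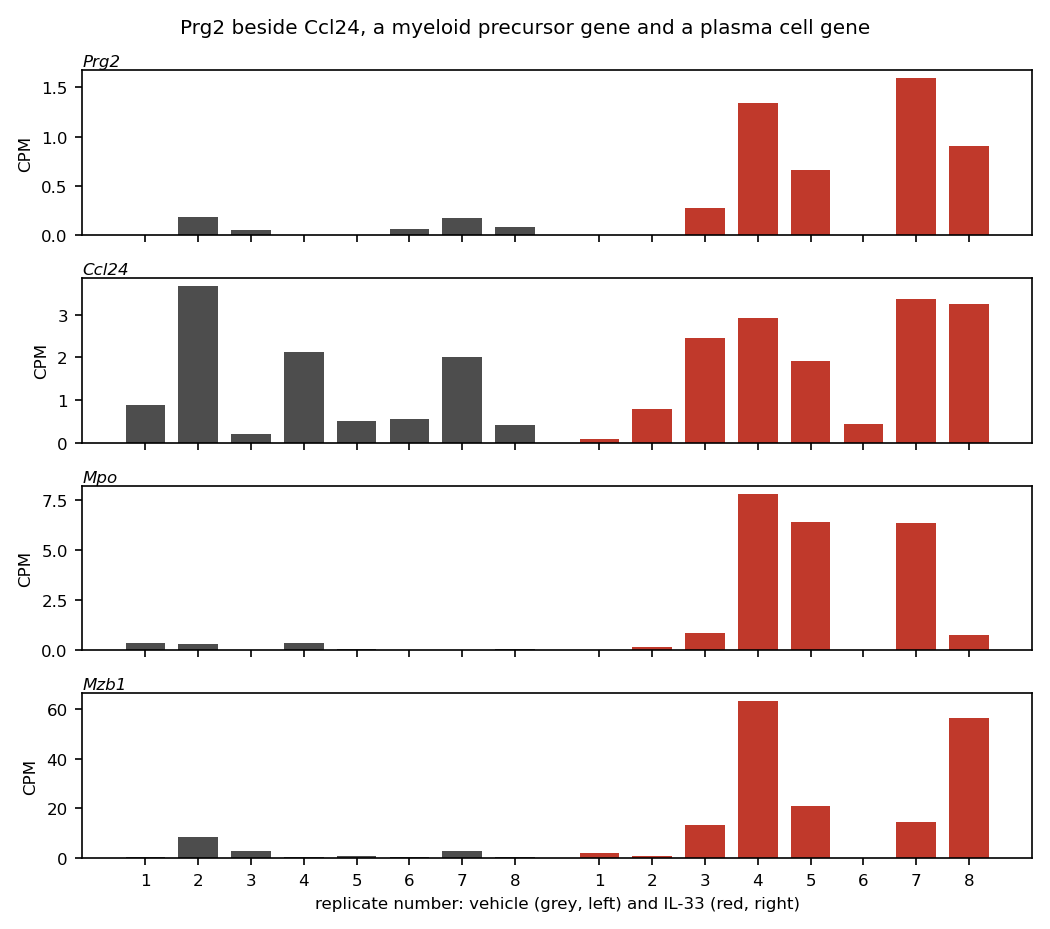
Levels of Prg2, Ccl24, the neutrophil precursor gene Mpo and the plasma cell gene Mzb1 in each tumor, in CPM, 1 bar per tumor by replicate number, vehicle in grey and IL-33 in red. IL-33 replicates 3, 4, 5, 7 and 8 have the 5 tallest bars of Prg2, and the bars of Mpo and Mzb1 in these 5 tumors also lie above those of all vehicle tumors.

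Eosinophil markers outside the 10 genes were sparse or did not pass the test. Prg3, the homolog of Prg2, had 7 counts over all tumors and Ear6 had 1. Il5ra, the receptor chain through which IL-5 acts on eosinophils, had 17 counts in the vehicle group and 6 in the IL-33 treatment group, with its highest level, 0.457 CPM, in vehicle replicate 7. Of 10 eosinophil markers outside the list, 8 could be tested and none had an unadjusted p under 0.05, while 5 had a log2 fold change above 0. The most abundant, the Fc receptor gene Fcgr4, which other myeloid cells also use, had a log2 fold change of 0.64 ± 0.48 (SE, adjusted p = 0.669, edgeR), and 0.82 without IL-33 replicate 7 (unadjusted p = 0.0820, edgeR). Ear1 and Ear2 belong to a family of near-identical copies and are uncertain as single genes.

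Per kilobase of exon, the mean level over the 16 tumors ordered the genes as Ccl11 (7.42 CPM per kb), Ccl24 (1.23), Gata3 (0.930), Prg2 (0.397), Ccr3 (0.190), Siglecf (0.0607), Il4 (0.0212), Il5 (0.00880), Il13 (0.00593) and Epx (0.00534). Ccl11 was above Ccl24 in 15 of 16 tumors, and Ccr3 above Siglecf in 15 of 16. Gata3 was above Prg2 in 14. Ccl24 and Gata3 could not be ordered, since each was the higher in 8 tumors. Prg2 was above Ccr3 in mean but below it in 10 of 16 tumors, and the 4 lowest genes, each with 7 counts or fewer in all, could not be ordered.

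**Figure D4:**
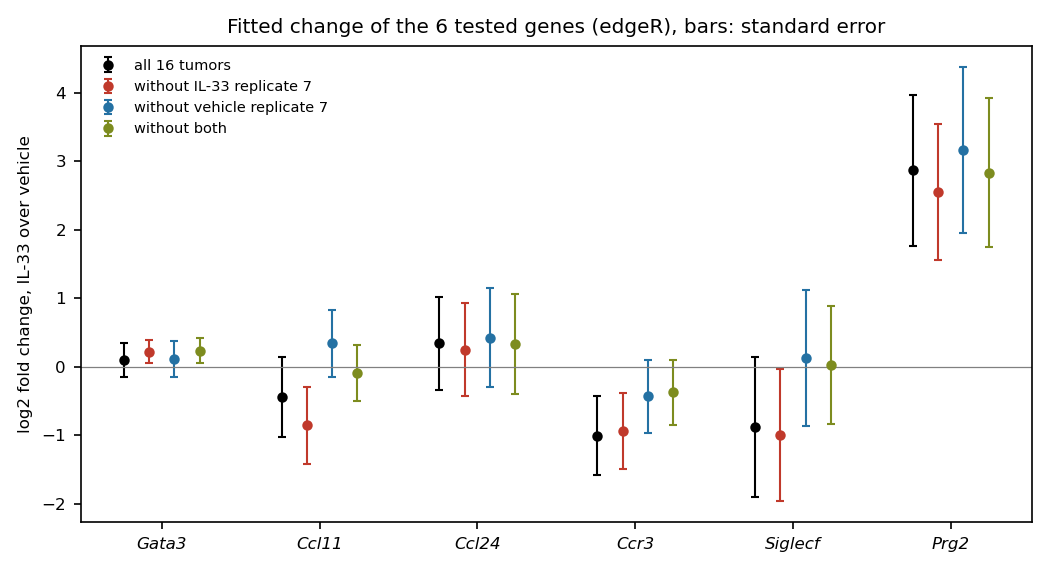
Log2 fold change of the IL-33 treatment group over the vehicle group from edgeR for the 6 tested genes, with the standard error as a bar, over all 16 tumors, without IL-33 replicate 7, with vehicle replicate 7 left out, and with both left out. Prg2 stays between 2.55 and 3.17, and Ccl11 and Siglecf change sign when vehicle replicate 7 is left out.

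Whether the genes varied together from tumor to tumor was examined for the 15 pairs of the 6 tested genes. The clearest pair was Ccl24 and Prg2, with Pearson's r = 0.71 on log2(CPM + 0.5) (permutation p = 0.00124, adjusted p = 0.0186 over the 15 pairs) and Spearman's rho = 0.69 (permutation p = 0.00436, adjusted p = 0.0327). Without IL-33 replicate 1 and vehicle replicate 3, the tumors farthest from the median of Ccl24, r was 0.71. Within the IL-33 treatment group r was 0.88 (n = 8, exact permutation p = 0.00551, adjusted p = 0.0826) and rho was 0.93 (exact permutation p = 0.00268, adjusted p = 0.0402). Within the vehicle group, where Prg2 never passed 3 counts, r was 0.51 (n = 8, exact permutation p = 0.197) and rho was 0.24 (exact permutation p = 0.564). Without IL-33 replicate 7 the pooled r was 0.67 (n = 15, permutation p = 0.00307).

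Siglecf had an adjusted p under 0.05 with 3 of the other genes, each by only 1 coefficient, in part through vehicle replicate 7. For Ccr3 and Ccl11 this was r, and for Ccl24 it was rho. For Ccr3 and Siglecf r was 0.77 (n = 16, permutation p = 0.00406, adjusted p = 0.0304) and rho was 0.30 (permutation p = 0.266), and r was 0.05 once vehicle replicates 7 and 2 were left out, so this relation rested on those tumors. For Siglecf and Ccl11 r was 0.68 (permutation p = 0.00641, adjusted p = 0.0320) and rho was 0.55 (permutation p = 0.0309, adjusted p = 0.155). For Siglecf and Ccl11 r was 0.37 without vehicle replicate 7 (n = 15, permutation p = 0.172), and 0.60 without vehicle replicates 7 and 2. Without IL-33 replicate 7 r of this pair was 0.71 (n = 15, permutation p = 0.0132, adjusted p = 0.0416). Within the groups it was 0.71 among vehicle tumors (n = 8, exact permutation p = 0.0902) and 0.79 among IL-33 tumors (n = 8, exact permutation p = 0.0201, adjusted p = 0.106).

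For Siglecf and Ccl24 the order of the tumors was more alike than the levels, with rho = 0.71 (permutation p = 0.00262, adjusted p = 0.0327) and r = 0.54 (permutation p = 0.0200, adjusted p = 0.0750). Without vehicle replicate 7 r of this pair was 0.72 (n = 15, permutation p = 0.00336, adjusted p = 0.0252). Siglecf rests on 18 counts or fewer per tumor, so its relations are those of sparse counts. Over all 16 tumors Gata3 passed the adjusted threshold with none of the other 5 genes, with r between -0.38 and 0.35. Gata3 and Prg2 had r = 0.05 over all tumors (permutation p = 0.858), and r = 0.67 without IL-33 replicate 7 (n = 15, permutation p = 0.00533, adjusted p = 0.0266), where rho was 0.61 (permutation p = 0.0189, adjusted p = 0.0946). Without both replicates 7 r of Gata3 and Prg2 was 0.67 (n = 14, permutation p = 0.00725, adjusted p = 0.0362), so whether this pair passed depended on IL-33 replicate 7.

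The genes most like the more abundant members over the 16 tumors, by Spearman's rho of log2 CPM, are given as a description. For Ccl24 they were Srgn (serglycin, the core proteoglycan of granules in blood cells; rho = 0.91), Ifitm1, Amz1, 6430531B16Rik and Timd4, a receptor of resident macrophages (rho = 0.85). For Ccl11 they were Hspa12b, Hoxb7, Tagln, Cd302 and Panx1, with rho between 0.91 and 0.94. For Gata3 they were Cyb561a3, Apln, Rapsn, Arhgap45 and Gm13769, with rho between 0.81 and 0.86.

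Beside the 10 listed genes, 65 genes of the same pathway were followed in 7 lists, of which 61 could be tested and 0 had an adjusted p under 0.05 by edgeR. At an unadjusted p under 0.05, 8 were higher (13.1%, against 9.99% of all genes) and 0 lower. Without IL-33 replicate 7, 2 were higher and 1 lower of 59 tested (5.08% in all, against 4.12% of all genes).

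Of 13 receptor and signaling genes 1 was higher, Csf2rb, the shared receptor chain for IL-5, IL-3 and GM-CSF, with 32.0 ± 12.3 CPM over the vehicle tumors and 51.7 ± 29.2 CPM over the IL-33 tumors (SD, n = 8 each). Its log2 fold change was 0.57 ± 0.25 (SE, unadjusted p = 0.0359, edgeR), and 0.39 without IL-33 replicate 7 (unadjusted p = 0.101, edgeR). Il4ra, the receptor of IL-4 and IL-13 and the most abundant of them, stood at 251 ± 39.6 and 249.9 ± 74.7 CPM (SD, n = 8 each) in the vehicle and IL-33 groups. Il4ra was thus abundant in tumors in which Il4 and Il13 had 2 counts at most.

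Of 14 STAT6 target genes of macrophages 2 were higher. Irf4, a transcription factor of macrophages and also of plasma cells, had a log2 fold change of 1.75 ± 0.61 (SE, unadjusted p = 0.0110, edgeR) and 1.80 without IL-33 replicate 7, and was highest in IL-33 replicates 4 and 8, at 17.6 and 13.4 CPM. Cish, a cytokine-induced inhibitor, had a log2 fold change of 0.83, and 0.27 without IL-33 replicate 7. Mrc1, the mannose receptor gene and the most abundant of the list, had a log2 fold change of -0.40 ± 0.38 (SE, adjusted p = 0.762, edgeR), and -0.47 without IL-33 replicate 7.

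Of the 16 innate lymphoid and T helper 2 genes 15 could be tested and 1 was higher, Il17rb, the receptor of IL-25, whose 477 IL-33 counts came mostly from replicate 7, with 26.7 CPM there. Its log2 fold change was 4.69 with that tumor and -0.57 without it. Il1rl1, the most abundant, had a log2 fold change of -0.33 ± 0.42 (SE, adjusted p = 0.838, edgeR) and -0.15 without IL-33 replicate 7, and Il9 had 0 counts in all tumors. Among the 3 alarmins Il25 had 0 counts, and Il33 itself stood at 366 ± 152 and 386 ± 270 CPM (SD, n = 8) in the vehicle and IL-33 treatment groups.

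Of 4 other ligands of CCR3 1 was higher, Ccl28, an epithelial chemokine with 0 counts among the vehicle tumors and 114 among the IL-33 tumors, at 6.44 CPM in replicate 7. It was not tested without that tumor. Ccl7, the most abundant, had a log2 fold change of 0.07 ± 0.57 (SE, adjusted p = 0.985, edgeR), and 0.25 without IL-33 replicate 7. Of 7 eosinophil lineage factors 3 were higher, Gata2, Id2 and Zfpm1, with log2 fold changes of 3.04, 0.59 and 0.66. Without IL-33 replicate 7 these were -0.80, 0.59 and 0.64, with unadjusted p = 0.0360, 0.0341 and 0.0604 (edgeR), so that Gata2, which mast cells and the uterus also use, turned from higher to lower. Xbp1, the most abundant of these factors and one that plasma cells also need, had a log2 fold change of 0.25 ± 0.16 (SE, adjusted p = 0.600, edgeR), and 0.17 without IL-33 replicate 7.

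The levels of other cell types were followed in 15 lists. At an unadjusted p under 0.05 by edgeR all 11 uterus and oviduct genes, all 10 ovary genes, 6 of 8 epithelial, 1 of 6 adipose, 1 of 5 mesothelial, 1 of 8 peritoneal macrophage, 1 of 5 alveolar macrophage and 2 of 11 mast cell and basophil genes were higher in the IL-33 treatment group, and none of these was higher without IL-33 replicate 7. Among 9 T cell, 9 macrophage, 7 neutrophil and 9 fibroblast genes none was higher or lower with all tumors. Of the 11 mast cell and basophil genes 1 was lower, Mcpt8, and 4 of 5 red blood cell genes were lower. When IL-33 replicate 7 was left out, the lower genes of these lists were all 5 of red blood cells, 2 of mast cells and basophils (Mcpt8 and Gata2), 2 of epithelium (Krt18 and Cldn3) and 1 of fibroblasts (Pi16). Over all genes tested, 9.99% were higher and 1.17% lower at that threshold with all tumors. Without IL-33 replicate 7 the shares were 1.83% and 2.29%. With such shares, 1 or 2 genes called in a list were not read as a change of that cell type. Red blood cell genes were highest in vehicle replicate 4, where Ccl24 stood at 2.12 CPM and Prg2 had no count.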

How the data were processed

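RNA of 16 abdominal MFC tumors, 8 per group, was enriched for poly(A) and sequenced by a company. The authors deposited raw read counts per gene for each tumor, without normalization. The submitters' processing notes name HISAT2, featureCounts and mm10, with no version, and the annotation release and the use of strand are not given in the sources used here. Total counts lay between 14139268 and 24290794 per tumor, so 1 count was worth 0.0412 to 0.0707 CPM. Chi-square per degree of freedom was 8.79 or more for each pair of libraries, so none was taken for a copy of another.

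Symbols and positions were read from GENCODE M21 (GRCm38), in which 22255 of 22298 identifiers had a name and all 184 listed genes were found. CPM was taken on the total count of a tumor. A sum of 10 counts or more in all tumors let 16817 genes into the test by edgeR 4.0.16 (R 4.3.3), with TMM scaling, glmQLFit, glmQLFTest and Benjamini-Hochberg adjustment, and the 6 listed genes among them also by exact permutation, two-sided, of log2(CPM + 0.5) among the 12870 ways of dividing the tumors (smallest p 0.000155). Pairs of genes were compared with 100000 permutations (scipy 1.17.1). The edgeR script was tested on simulated data.

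The 10 genes, the other lists and the tests were chosen with earlier results of these data known. Genes named beside the 10 were those of the pathway lists with an unadjusted p under 0.05 (at most 4 a list), the most abundant gene of each of these lists, and the 5 genes most alike to Gata3, Ccl11 and Ccl24, the listed genes with at least 10 counts in at least 8 tumors. Rad50 and the genes set beside a result to describe a tumor (such as Mpo, Mzb1, Tpsb2 and Col1a1) were picked after their values had been seen. Cell type lists are given as counts. Alternatives were DESeq2 1.42.0, upper-quartile scaling, filterByExpr, no filter, voom of limma 3.58.1 with quality weights per sample, a block for the replicate number, other pseudocounts, each tumor left out in turn, and IL-33 replicate 7 left out together with vehicle replicate 4. Fits without vehicle replicate 7 in the permutation tests and pairs, and without both replicates 7, were added after the data had been seen. No per-sample column was left unused.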

Additional observations from a re-analysis of the deposited data

Results flagged for a closer look

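In 7 of the 18 groups of 8 tumors that had a count of the gene, the highest tumor was separated from the next by more of the group's range than Dixon's 95% critical value allows. For normally distributed values chance gives this in about 1 of 20 groups, but these levels are sparse and skewed, so that share is no yardstick here. In 4 of them the tumor was vehicle replicate 7, with 2.80 CPM of Ccr3 (next 1.349 CPM), 1.03 CPM of Siglecf (next 0.368 CPM), 36.7 CPM of Ccl11 (next 9.48 CPM) and 0.114 CPM of Il13, which rests on 2 counts. IL-33 replicate 7 stood out with 22.9 CPM of Ccl11 (next 11.8 CPM). IL-33 replicate 4 stood out with 0.234 CPM of Epx, from 4 counts, and IL-33 replicate 5 with 0.110 CPM of Il5, from 2 counts. For these last 2 and for Il13 all other tumors of the group had 0 counts, so that the gap equals the whole range by construction and a few reads decide the value.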

How the results depend on the processing

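No listed gene had an adjusted p under 0.05 in any fit run. The number of all genes with an unadjusted p under 0.05, 1876, became 691 with DESeq2, 642 with filterByExpr, 1017 with limma voom, 659 without IL-33 replicate 7 and vehicle replicate 4, and 854 without both replicates 7, and with 1 tumor left out it ranged from 651 (without IL-33 replicate 7) to 2163. With the replicate number as a block it was 318, and the number of listed genes was 0. Prg2 was the 1 listed gene with an unadjusted p under 0.05, and the number was 1 with each of the 16 tumors left out. It was 0 with filterByExpr, which drops Prg2, and 0 with limma voom (log2 fold change 1.09), and under the replicate block Prg2 had 2.32 (unadjusted p = 0.0980, edgeR). Same-numbered tumors deviated together with correlations between -0.32 and 0.35, so the numbers were not taken to pair the tumors. By exact permutation the number of listed genes was 1 (Prg2), and 0 with a pseudocount of 0.1 (p = 0.0654), without IL-33 replicate 7 (p = 0.0842), with sign flips of same-numbered tumors as a replicate block (p = 0.0781) and without both replicates 7 for Prg2 (p = 0.0897), where Gata3 instead reached p = 0.0495 with a difference of 0.27. In the edgeR fit of the same tumors Gata3 did not pass, with a log2 fold change of 0.24 (unadjusted p = 0.208, edgeR). Siglecf changed sign with limma voom (0.42) and without both replicates 7 (0.025, and 0.033 by permutation), and with 1 or 2 tumors left out its log2 fold change ranged from -1.05 to 0.13, the upper end without vehicle replicate 7, and its permutation difference from -0.14 to 0.068. For Ccl11, which changed sign without vehicle replicate 7, these ranges were -0.87 to 0.34 and -0.43 to 0.23. The number of pairs of genes with an adjusted p of r under 0.05 was 3, became 5 without IL-33 replicate 7 and fell to 2 when vehicle replicate 7 was left out. The other 263 values kept direction and side of the threshold, or a count within 1.5 times. Depth limits Il4, Il5, Il13 and Epx, which had 7 counts or fewer over all tumors, and the causes of these changes were not tested.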
